A study of Homo sapiens with 8 samples.

Results

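Palbociclib and JQ1 were compared as single agents. The 693 cells of the palbociclib library were set against the 868 cells of the JQ1 library from the same experiment (JQ1-B), both chosen by library name alone, and these 1561 cells belonged to a series of 5738 cells in 8 libraries. All libraries came from SUM159, a human line of triple-negative breast cancer, which had been infected with a lentiviral library of DNA barcodes (ClonTracer). Palbociclib cells were selected in 160 nM palbociclib and JQ1 cells in 100 nM JQ1 for up to 18 passages. Parallel cultures, 3 for each single agent, were mixed in equal shares for 1 library, so that each drug was read once in this experiment. Another library of JQ1-selected cells at the same dose (JQ1-A, 697 cells) came from the experiment with paclitaxel. Drug-free cells were the parental population before treatment (602 cells) and cells passaged in DMSO in the paclitaxel experiment (459 cells), since no vehicle library of the palbociclib experiment was analysed here. Cells grown in both drugs (JQ1+palbociclib, 1024 cells), a treatment that lost a culture during selection, are given beside the single agents where they bear on them.

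Palbociclib blocks the kinases CDK4 and CDK6, which D cyclins activate in early G1. The active kinases phosphorylate the retinoblastoma protein RB and free E2F factors, which switch on the genes of DNA replication. JQ1 displaces BET bromodomain proteins from acetylated chromatin. These proteins help to bring the elongation kinase P-TEFb to promoters and enhancers, and inflammatory genes are among the known targets of BET inhibitors.

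The palbociclib library held 16553292 UMIs and JQ1-B 20301289, with a median of 22495 and 21605.5 UMIs per cell. No cell barcode was shared by the pair. Both libraries carried the markers of this mesenchymal line, since vimentin, the intermediate filament of such cells, was at 3378 CPM (UMIs of a gene per 1000000 UMIs, summed over all cells of a library) in palbociclib and 4047 in JQ1-B. EPCAM, an epithelial adhesion molecule, was at 0.121 and 0.148 CPM, and PTPRC, the pan-leukocyte marker, at 0 and 0.0985. By expression of phase genes, 56.6% of palbociclib cells were called G1 (95% Clopper-Pearson interval 52.8 to 60.3) against 38.0% of JQ1-B cells (34.8 to 41.3), 47.2% of JQ1-A cells and 16.9% and 17.4% of the drug-free cells. Median mitochondrial shares of UMIs were 5.58% and 5.03%.

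With 1 library a drug, palbociclib and JQ1-B could be compared only by size. Ratios of CPM carry exact 95% intervals that cover counting error alone, and each ratio was also taken against JQ1-A. Of 4590 genes at 20 CPM or more in either library, 157 (3.42%) were at least 2-fold higher in palbociclib and 27 (0.588%) at least 2-fold lower. Of these, 117 genes (2.55%) were also at least 2-fold above JQ1-A and 14 (0.305%) at least 2-fold below it, and no gene lay the other way against JQ1-A. The JQ1 libraries of the 2 experiments themselves differed at least 2-fold in 5 of 4300 genes, 4 higher and 1 lower in JQ1-A.

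**Figure D1:**
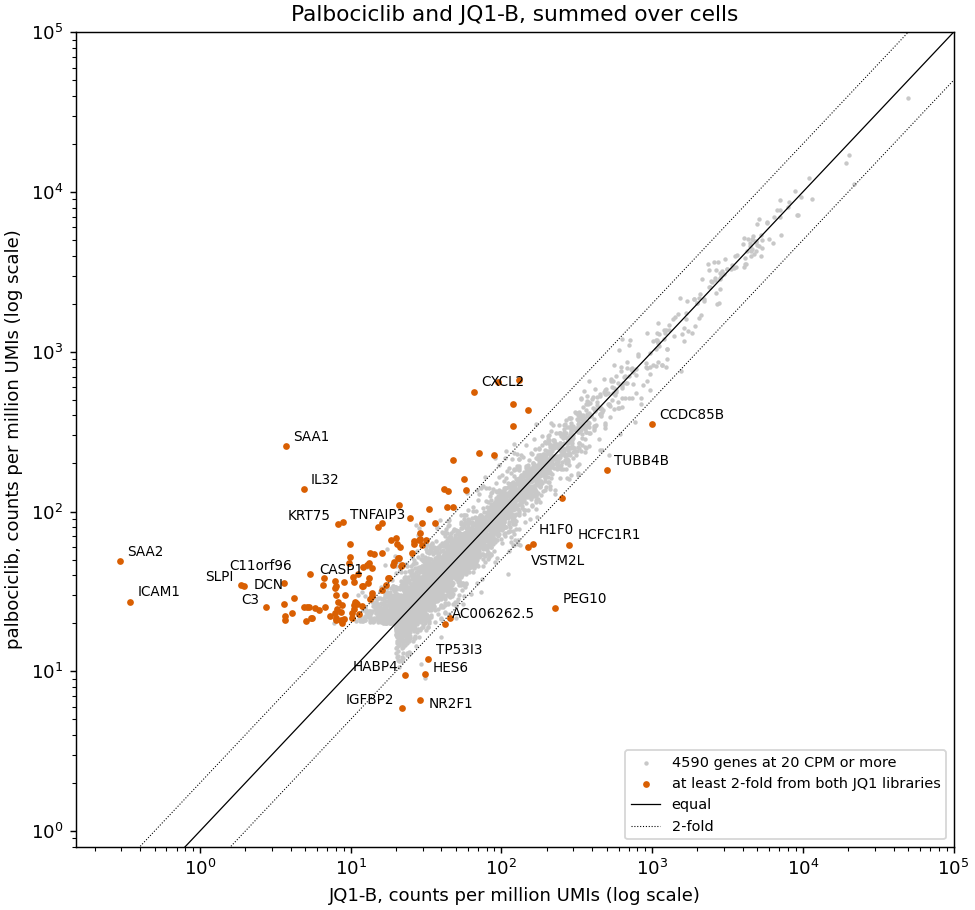
Each point is 1 of 4590 genes, with its CPM in JQ1-B on the x axis and in palbociclib on the y axis, both on log scales. Orange points are the 131 genes at least 2-fold from both JQ1 libraries, and 117 of them lie above the diagonal, up to SAA2 at 48.9 against 0.296 CPM.

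A fit across libraries gave the test. Counts were fitted with edgeR's quasi-likelihood model in 3 groups, drug-free (pre-treatment and DMSO), JQ1 (JQ1-A and JQ1-B) and palbociclib, whose lone library was assumed to vary like the pairs. Such p-values measure the spread between these libraries, which join separate experiments. Of 9288 genes tested, 465 (5.01%) were higher in palbociclib than in JQ1 and 184 (1.98%) lower at an adjusted p under 0.05. The calls held 112 of the 117 genes and 13 of the 14. Those genes were chosen by their ratios between libraries that the fit also used, so this overlap is not separate support. The counts rested on single libraries: without JQ1-B 98 genes were higher and 13 lower, without JQ1-A 148 and 29, without DMSO 1013 and 673, and without the pre-treatment library 1013 and 669. A term for the experiment over all 8 libraries left 3 higher and 1 lower.

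The genes highest in palbociclib over JQ1-B were led by acute phase and inflammatory genes. SAA2, which encodes a serum amyloid A protein of the acute phase response, was at 48.9 CPM in palbociclib, 0.296 in JQ1-B and 0.185 in JQ1-A, with 9.79 before treatment and 2.17 in DMSO. Its ratio to JQ1-B was 166 (75.7 to 452), with 6 UMIs in the denominator. The sister gene SAA1 was at 257 CPM in palbociclib against 3.74 in JQ1-B and 2.90 in JQ1-A, a ratio of 68.5 (54.6 to 87.1), and at 65.5 and 26.5 in the drug-free libraries. Among these 5 libraries palbociclib was thus the highest and both JQ1 libraries the lowest for each gene. A low level did not hold in all cells with JQ1. Cells selected in 100 nM JQ1 with 0.6 nM paclitaxel (643 cells) held 59.8 CPM of SAA1 and 5.02 of SAA2, within the drug-free range. With JQ1 and palbociclib the values were 5.94 and 0.454 CPM. SAA1 and SAA2 lie on chromosome 11 (GRCh37 chr11:18287807-18291524 and chr11:18260770-18270215), and their near-identical transcripts may trade reads. In the fit SAA1 rose against drug-free cells under palbociclib (log2 fold change 2.60 ± 0.35 SE, edgeR adjusted p = 0.00567) and fell under JQ1 (-3.56 ± 0.39, adjusted p = 0.000366). C3, the central complement component, was at 25.1 CPM in palbociclib and 2.76 in JQ1-B, and SLPI, a secreted inhibitor of leukocyte proteases, at 34.9 and 1.87. PTX3, a pentraxin, was 2.76-fold higher, while CD55 and CD59, which shield cells from complement, were at ratios of 0.88 and 0.90. Of 6 acute phase and complement genes counted, 4 were at least 1.5-fold higher and none 1.5-fold lower (median log2 ratio 2.33), whereas over all 4590 genes 9.24% were 1.5-fold higher and 3.68% lower (median 0.04). These 6 were the members, of 16 with counts, at 20 CPM or more in either library. SAA1, SAA2 and C3 reached that only in palbociclib, so the cut itself favoured higher genes.

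Most NF-kB genes were higher in palbociclib. NF-kB dimers wait in the cytoplasm bound to inhibitors such as NFKBIA and, once released, activate cytokines, adhesion molecules and their own inhibitors. Of 19 NF-kB and cytokine genes counted by size, 16 were at least 1.5-fold higher in palbociclib than in JQ1-B and none lower, with a median log2 ratio of 2.1. Over all 4590 genes 9.24% were higher and 3.68% lower. A counted gene needed 20 CPM in only 1 of these libraries, and ICAM1 and TNFAIP3 reached it only in palbociclib. The fit tested 24 of the list and called 19 higher and none lower, the other 5 being short of the threshold. Against JQ1-A, 15 genes were at least 1.5-fold higher and none lower, with a median of 1.39. A low level of the list was not particular to JQ1. Cells selected in 0.6 nM paclitaxel without JQ1 (752 cells) held 774 CPM summed over the list. The sum was 718 CPM in JQ1-B, 1053 in JQ1-A, 3147 in palbociclib, and 2779 and 2698 in drug-free cells.

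Among the effectors, ICAM1, a receptor for leukocyte integrins, was at 27.2 CPM in palbociclib, 0.345 in JQ1-B and 0.618 in JQ1-A, against 12.1 and 9.13 in the drug-free libraries. Its ratio was 79.0 (38.0 to 198), and the fit gave a log2 difference of 5.75 ± 0.30 (adjusted p = 5.86e-05). IL32, a proinflammatory cytokine, stood at 138 CPM in palbociclib, 4.88 in JQ1-B and 2.97 in JQ1-A. The drug-free libraries held 211 and 132 CPM of IL32, so the palbociclib value lay within their range and the JQ1 values far under it. CXCL2, a neutrophil chemokine, was at 564 CPM in palbociclib, 65.9 in JQ1-B and 170 in JQ1-A, with 442 and 504 in drug-free cells. IL8 (CXCL8), another neutrophil chemokine, was at 669, 131 and 207 CPM, with 862 and 867 in drug-free cells. Chemokine levels in palbociclib were thus those of drug-free cells or near them. IL6, by contrast, was at 211 CPM in palbociclib against 90.5 and 88.5 in drug-free cells and 47.4 in JQ1-B, and LIF, a cytokine of the IL6 family, at 26.2 against 4.33 and 5.46 and 3.60. Both rose over drug-free cells under palbociclib, IL6 by 1.37 ± 0.20 (adjusted p = 0.00651) and LIF by 2.57 ± 0.32 on the log2 scale (adjusted p = 0.00521). SOD2, the mitochondrial superoxide dismutase that NF-kB induces, was at 645 CPM in palbociclib, 94.7 in JQ1-B, 113 in JQ1-A and 317 and 231 in drug-free cells.

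Inhibitors of the pathway stood on the same side. TNFAIP3, the A20 enzyme that edits ubiquitin to end the signal, was at 85.8 CPM in palbociclib, 8.92 in JQ1-B, 19.8 in JQ1-A and 42.3 and 45.5 in drug-free cells (ratio 9.63, 8.24 to 11.3). The inhibitor NFKBIA was at 217, 90.5 and 141 CPM and at 314 and 334 in drug-free cells, and its difference in the fit missed the threshold (0.81 ± 0.22, adjusted p = 0.0548). The subunit gene NFKB1 was 2.48-fold higher in palbociclib (2.11 to 2.93). RELA, which encodes the main activating subunit, was at 26.2, 23.4 and 24.4 CPM, a ratio of 1.12 (0.977 to 1.27). The list was therefore not uniform, as RELA, CCL20 (ratio 1.12) and IL18 (ratio 0.86) lay within 1.5-fold.

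The promoters of 5 genes of the list are printed because the members moved together. Each run is the 150 bases before the start site, 5′ to 3′ on the gene's strand, from RefSeq on GRCh38.p14, and capitals mark matches to an NF-kB motif, GGG and TTTCC with 2 bases of any kind between them, or to its reverse complement.
ICAM1: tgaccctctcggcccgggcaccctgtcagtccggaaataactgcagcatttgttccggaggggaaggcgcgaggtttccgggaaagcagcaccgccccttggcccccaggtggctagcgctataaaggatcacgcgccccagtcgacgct
IL32: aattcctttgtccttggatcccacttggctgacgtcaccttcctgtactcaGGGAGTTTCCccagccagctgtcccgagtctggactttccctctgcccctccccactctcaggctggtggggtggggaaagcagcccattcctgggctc
TNFAIP3: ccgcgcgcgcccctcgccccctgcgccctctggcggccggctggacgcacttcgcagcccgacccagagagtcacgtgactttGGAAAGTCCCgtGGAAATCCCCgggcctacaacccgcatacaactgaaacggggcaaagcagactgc
CXCL2: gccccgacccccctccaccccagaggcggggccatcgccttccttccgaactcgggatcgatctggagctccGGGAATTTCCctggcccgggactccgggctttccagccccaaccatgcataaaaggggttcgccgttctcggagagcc
NFKBIA: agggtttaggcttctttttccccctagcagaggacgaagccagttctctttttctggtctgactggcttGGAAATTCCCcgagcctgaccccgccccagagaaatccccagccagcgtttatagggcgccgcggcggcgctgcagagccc
The ICAM1 run lies at chr19:10270970-10271119 on the plus strand, IL32 at chr16:3065253-3065402 (plus), TNFAIP3 at chr6:137867109-137867258 (plus), CXCL2 at chr4:74099196-74099345 (minus) and NFKBIA at chr14:35404750-35404899 (minus). TNFAIP3 held 2 matches, starting 67 and 55 bases before the start site. IL32, CXCL2 and NFKBIA held 1 each, at 99, 78 and 81 bases, and the printed ICAM1 run held none. In the 250 bases before the start, on either strand, a match was found in 11 of the 17 counted NF-kB genes with a promoter in the table. It was found in 9 of 85 promoters of the 117 genes (10.6%) and in 0 of 10 of the 14 lower genes. The background was 114 of 3810 promoters of the genes counted by size (2.99%) and 578 of 27305 in all (2.12%). The list holds known NF-kB genes but was chosen with earlier results of these data known. Only members at 20 CPM or more in palbociclib or JQ1-B were counted, and ICAM1 and TNFAIP3 reached that only in palbociclib. The 11 of 17 is therefore not independent of these data. The 117 genes include members of the list, so their share is not separate from it.

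Most interferon-stimulated genes and some antigen presentation genes were also higher in palbociclib. Of 12 interferon-stimulated genes counted, 9 were at least 1.5-fold higher and none lower (median log2 ratio 1.23), and of 24 tested the fit called 15 higher and 1 lower. IFITM2, a membrane protein that restricts viral entry, was at 110 CPM in palbociclib, 21.0 in JQ1-B, 27.0 in JQ1-A and 65.6 and 70.3 in drug-free cells. ISG15, a ubiquitin-like modifier, was at 139, 41.7 and 33.2 CPM with 166 and 111 in drug-free cells. IFITM2 therefore lay above the drug-free range in palbociclib and ISG15 within it, and both lay under it in JQ1. Of 10 MHC class I pathway genes, 5 were at least 1.5-fold higher, and the fit called 3 of 12. Over all genes 9.24% were at least 1.5-fold higher by size, and the fit called 5.01% higher. HLA-B was at 160 CPM in palbociclib and 56.4 in JQ1-B (2.84-fold, 2.65 to 3.05), and the immunoproteasome subunit PSMB8 at 103 and 33.2. The invariant light chain B2M was at 1378 and 1242 CPM (ratio 1.11), with a fitted difference of -0.01 ± 0.12 (edgeR adjusted p = 0.979).

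Immediate early genes, which growth factor signals switch on within minutes, followed with a median log2 ratio of 1.09. Of 14 counted, 11 were at least 1.5-fold higher in palbociclib, and the fit called 5 of 17, beside 9.24% and 5.01% of all genes. Against JQ1-A, 7 were at least 1.5-fold higher and 1 lower, with a median of 0.66. FOS, a subunit of AP-1, was at 90.9 CPM in palbociclib, 24.9 in JQ1-B, 37.4 in JQ1-A and 26.4 and 60.4 in drug-free cells. JUN, its partner, was at 48.8, 20.8 and 25.2 CPM, with 38.8 and 57.2 in drug-free cells. NR4A1, an orphan nuclear receptor, was at 79.1, 28.3 and 39.6 CPM with 11.1 and 18.0 in drug-free cells, so that palbociclib and both JQ1 libraries exceeded both drug-free ones. KLF6, JUND and KLF4 lay within 1.5-fold, at ratios of 1.17, 0.78 and 0.84. SIK1 (3.47-fold), FOSB (3.32-fold) and the chemokine CXCL3 (3.01-fold) were past 2-fold against JQ1-B but not against JQ1-A, where they were at 1.95, 1.75 and 1.48.

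Other genes in the lead were of mixed kind. DCN, the proteoglycan decorin, was at 34.4 CPM in palbociclib, 1.97 in JQ1-B and 2.41 in JQ1-A, with 26.2 and 7.81 in drug-free cells. CASP1, the inflammasome protease, was at 40.7, 5.42 and 4.82 CPM with 33.8 and 28.8 in drug-free cells. KRT75, a keratin, was at 83.5, 8.23 and 21.1 CPM, and the uncharacterised gene C11orf96 at 35.8, 3.60 and 10.3. Matrix and mesenchymal genes were split, with 9 of 21 counted at least 1.5-fold higher in palbociclib than in JQ1-B and 1 lower (median 0.36), but 4 higher and 1 lower against JQ1-A (median 0.09). Over all 4590 genes 9.24% were at least 1.5-fold above JQ1-B and 3.68% below it. The collagen gene COL8A1 was at 79.7 CPM against 15.2 in JQ1-B.

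**Figure D2:**
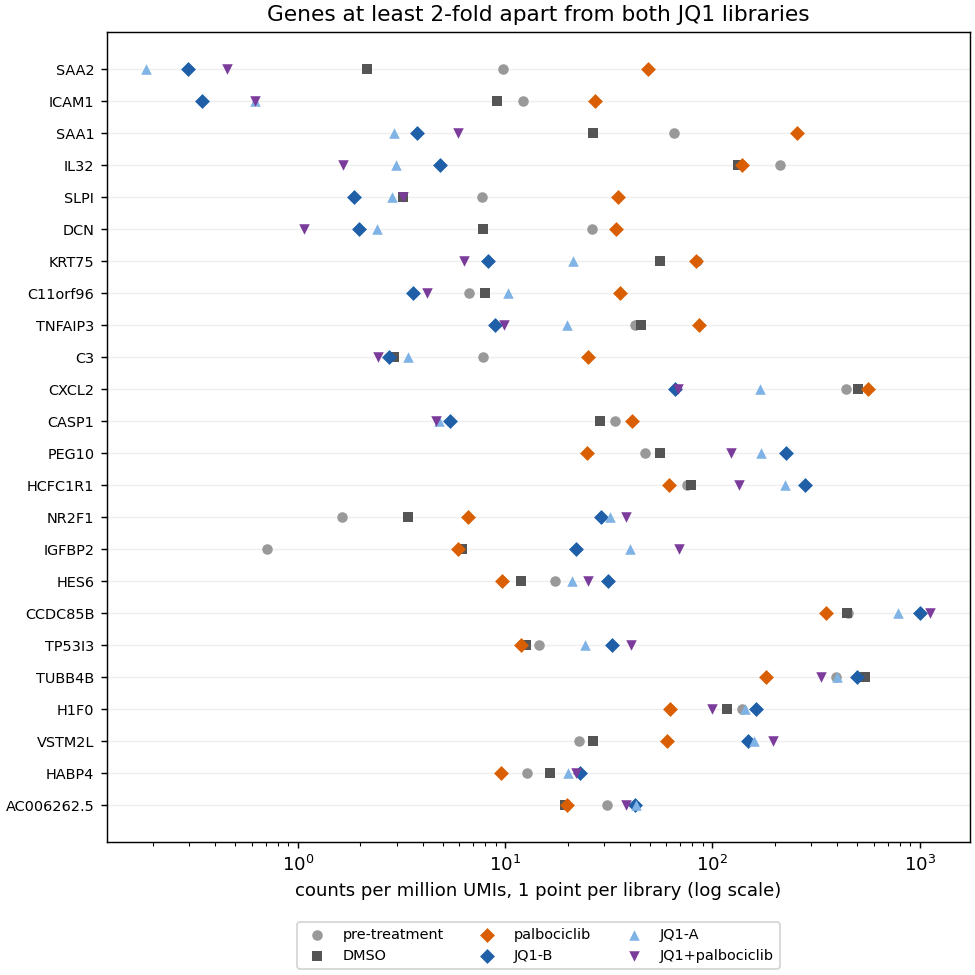
CPM (x axis, log scale) of the 12 genes highest and the 12 lowest in palbociclib over JQ1-B, among genes at least 2-fold from both JQ1 libraries, with 1 point per library. In the top rows palbociclib lies right of both JQ1 libraries and of JQ1+palbociclib, as for IL32 at 138 CPM against 4.88, 2.97 and 1.65.

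Against drug-free cells, more of the 117 higher genes stood low in JQ1-B than high in palbociclib. JQ1-B was at least 1.5-fold under both drug-free libraries in 92 of them and palbociclib at least 1.5-fold above both in 38, with 19 genes in both counts and 6 in neither. Palbociclib stayed within 1.5-fold of the drug-free range in 77. The choice of genes by their ratio to JQ1 largely set a low JQ1 or a high palbociclib level. Unscaled CPM also favoured counts below. Over all 4590 genes, 68.0% lay under the drug-free mean in palbociclib and 70.3% in JQ1-B, at any fold. Shares of all genes past 1.5-fold were not computed. At 2-fold, of 5080 genes, JQ1-B lay below both drug-free libraries in 4.82% and palbociclib above both in 1.02%. In the JQ1+palbociclib library the level was nearer to JQ1-B than to palbociclib, on a log scale, in 107 of the 117 genes. The share over all genes was not computed here either, so this count cannot be read as particular to these genes. The 10 exceptions, named after their values were seen, were PDPN, NR4A2, HEG1, VCAN, FAM20C, PCOLCE, FBXO32, ACO1, PCBD1 and HOMER3. VCAN, the proteoglycan versican, was at 48.7 CPM in palbociclib, 19.3 in JQ1-B and 42.3 with both drugs.

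Fewer genes were lower in palbociclib. PEG10, an imprinted gene derived from a retrotransposon (GRCh37 chr7:94285637-94299007), was at 24.9 CPM in palbociclib, 227 in JQ1-B and 171 in JQ1-A, with 47.5 and 55.9 in drug-free cells. JQ1-B was 9.11-fold higher (8.23 to 10.1), and the palbociclib library was the lowest of the 5. PEG10 fell under palbociclib against drug-free cells (-0.92 ± 0.19, adjusted p = 0.0143) and rose under JQ1 (2.18 ± 0.15, adjusted p = 7.11e-05). HCFC1R1, which encodes a regulator of the chromatin cofactor HCFC1, was at 61.9, 280 and 225 CPM with 75.5 and 79.1 in drug-free cells, so that only the JQ1 libraries stood apart. CCDC85B was at 352, 1001 and 782 CPM with 450 and 444 in drug-free cells. HES6, a helix-loop-helix factor, was at 9.61, 31.2 and 21.0 CPM, and TP53I3, a p53-induced oxidoreductase, at 11.9, 32.8 and 24.3. IGFBP2, a carrier of insulin-like growth factors, was at 5.92 CPM in palbociclib, 21.9 in JQ1-B and 40.2 in JQ1-A, and was not called (adjusted p = 0.0525). NR2F1, an orphan nuclear receptor, rose under both drugs and was at 6.58 CPM in palbociclib against 28.9 and 32.0 in the JQ1 libraries and 1.63 and 3.39 in drug-free cells. Of the 14 genes, JQ1-B was at least 1.5-fold above both drug-free libraries in 9 and palbociclib at least 1.5-fold under both in 3, with 1 in both counts. These genes too were chosen by their ratio to JQ1, and the shares over all genes at 1.5-fold were not computed.

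Histone, tubulin and antioxidant genes leaned to JQ1. Of 11 histone genes counted, 5 were at least 1.5-fold lower in palbociclib and none higher (median -0.50), and the fit called 6 of 14 lower. Over all genes 3.68% were at least 1.5-fold lower and 9.24% higher, and the fit called 1.98% lower. The linker histone H1F0 was at 62.3 CPM in palbociclib, 162 in JQ1-B, 144 in JQ1-A and 139 and 118 in drug-free cells, and H2AFX, the variant phosphorylated at DNA breaks, at 40.7, 111 and 74.8 with 71.3 and 74.7. For H1F0 palbociclib was the only one of these 5 libraries under 100 CPM, and for H2AFX palbociclib was the lowest and JQ1-B the highest. Of 10 tubulin genes, 5 were at least 1.5-fold lower, led by TUBB4B at 182 CPM in palbociclib against 499 in JQ1-B and 396 and 542 in drug-free cells, and 2 were called. In G1 cells alone the histone median was -0.32 and the tubulin median -0.42. Among 18 NRF2 targets, 4 were at least 1.5-fold lower in palbociclib and 1 higher. AKR1C2, NQO1, FTL and TXNRD1 were the lower ones, at ratios of 0.47, 0.50, 0.51 and 0.59, of which NQO1 was not called (adjusted p = 0.056). FTL, the ferritin light chain, was at 11205 CPM in palbociclib, 21893 in JQ1-B, 17530 in JQ1-A and 8898 and 10634 in drug-free cells. FTH1, the heavy chain, was at 39012, 50017 and 51036 CPM with 22343 and 22097 in drug-free cells, so it rose under both drugs and more so under JQ1.

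**Figure D3:**
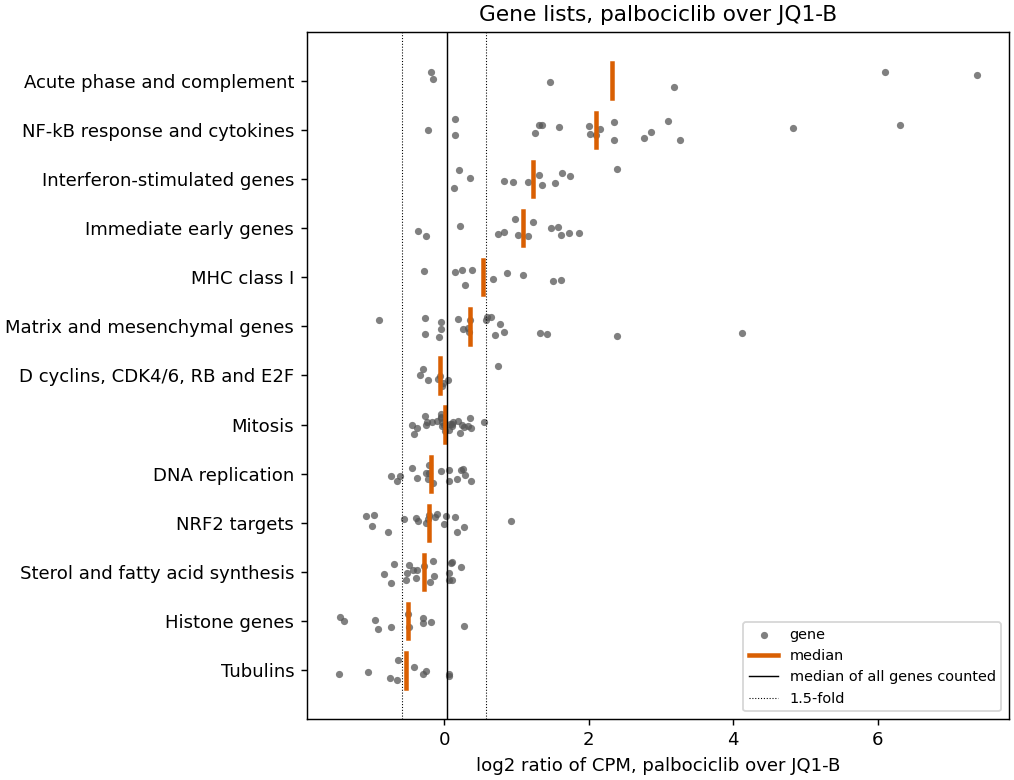
Log2 ratio of palbociclib over JQ1-B (x axis) for the genes at 20 CPM or more of 13 lists, with 1 point per gene and an orange bar at each list's median. The acute phase and NF-kB medians lie at 2.33 and 2.1, those of histones and tubulins at -0.50 and -0.52, and the median of all 4590 genes at 0.04.

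Among the targets of palbociclib, CDK4 was at 139 CPM in palbociclib, 142 in JQ1-B and 118 in JQ1-A (ratio to JQ1-B 0.98, 0.929 to 1.04), and CDK6 at 25.1, 24.0 and 17.5. Cyclin D1 (CCND1) was at 236, 297 and 253 CPM and cyclin D3 (CCND3) at 106, 107 and 91.8. RB1 was at 10.1, 13.2 and 12.7 CPM. In G1 cells alone the log2 ratios to JQ1-B were 0.49 for CDK4 and 0.39 for CDK6, against -0.03 and 0.06 in all cells. CCND1 was at -0.50 in G1 cells and CCND3 at -0.02. The DNA replication and mitosis medians were -0.18 and 0.01 in all cells and 0.48 and 0.54 in G1 cells. There 4 of 8 and 5 of 12 genes counted were at least 1.5-fold higher in palbociclib and 0 lower. Of 9 genes of this axis counted, 1 was past 1.5-fold, TFDP2, a dimer partner of E2F, at 29.4 against 17.4 CPM, which the fit did not call (adjusted p = 0.0658). CCND2 had 27 UMIs in palbociclib (1.63 CPM) and 0 in JQ1-B, about 11-fold higher when JQ1-B is set at a floor of 3 UMIs. The gene lay under the 20 CPM needed to be counted by size. The CDK inhibitor CDKN1A (p21) was at 32.3 CPM in palbociclib, 54.7 in JQ1-B and 51.2 in JQ1-A, with 24.96 and 31.3 in drug-free cells. It was 1.69-fold higher in JQ1-B (1.53 to 1.88), and the fit called it lower in palbociclib (-0.81 ± 0.17, adjusted p = 0.0185).

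HEXIM1, the P-TEFb inhibitor whose transcript is known to rise on BET inhibition, was at 18.1 CPM in palbociclib, 31.7 in JQ1-B and 30.1 in JQ1-A, with 17.4 and 16.1 in drug-free cells. The JQ1 libraries were above all others, and the fit called the difference (-0.86 ± 0.16, adjusted p = 0.0111). BRD2, a BET protein, was at 72.1, 104 and 91.8 CPM, a difference of -0.54 ± 0.14 that missed the threshold (adjusted p = 0.0537). ELL2, a subunit of the super elongation complex, lay the other way at 78.9, 37.4 and 41.8 CPM with 46.3 and 42.5 in drug-free cells. MYC was at 503 CPM in palbociclib, 401 in JQ1-B and 522 in JQ1-A, so that palbociclib lay between the JQ1 libraries, and all were above 263 and 356 in drug-free cells.

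Genes shared by the resistant populations were fewer by size. Of 5080 genes at 20 CPM or more in palbociclib, JQ1-B or a drug-free library, 12 (0.236%) were at least 2-fold above both drug-free libraries in palbociclib and in JQ1-B, and 36 (0.709%) at least 2-fold below both. Palbociclib alone counted 52 genes above (1.02%) and 82 below (1.61%), and JQ1-B 34 above (0.669%) and 245 below (4.82%). These comparisons share the drug-free libraries, which came from another experiment. JQ1-A, which shared an experiment with the DMSO library, was past 2-fold in the same direction in 10 of the 12 and 34 of the 36. In the fit 640 genes (6.89%) rose against drug-free cells under both drugs and 663 (7.14%) fell under both, including 12 of the 12 and 35 of the 36. Without JQ1-A the fit left 117 shared higher and 110 shared lower, without JQ1-B 192 and 170, and without DMSO 1046 and 1011. The 12 and the 36 genes were chosen on libraries that the fit also used, so their calls are not separate support. Palbociclib and drug-free cells came from different experiments, so that drug and experiment cannot be told apart there. Additive drug terms over 8 libraries left 14 shared higher and 6 shared lower genes in edgeR, and a further term for the experiment left 0 and 0 (226 and 224 at an unadjusted p under 0.05).

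Several shared higher genes encode matrix or basement membrane proteins. FN1, fibronectin, was at 260 CPM in palbociclib, 146 in JQ1-B and 247 in JQ1-A, against 56.1 before treatment and 69.6 in DMSO. It rose by 2.19 ± 0.26 under palbociclib (edgeR adjusted p = 0.00521) and by 1.88 ± 0.23 under JQ1 (adjusted p = 0.000481) on the log2 scale. AGRN, the heparan sulphate proteoglycan agrin, was at 36.9, 21.7 and 23.7 CPM with 10.6 in each drug-free library, and LAMA5, a laminin chain of basement membranes, at 24.1, 21.3 and 24.3 with 8.94 and 10.4. HTRA1, a secreted serine protease, was at 27.7, 17.1 and 29.2 CPM with 6.95 and 6.87. Palbociclib and JQ1-B stood clear of the drug-free libraries in these genes by the rule that chose them. JQ1-A, which the rule did not use, stood above both drug-free libraries too. Of 32 matrix and mesenchymal genes tested, 12 were shared higher, and of 10 integrin and adhesion genes 6 were, beside 6.89% of all genes tested. AQP3, a water and glycerol channel, was at 39.1, 32.6 and 19.7 CPM with 7.16 and 11.8, IFITM10 at 19.0, 30.2 and 28.8 with 2.98 and 6.12, and VSTM2L at 60.4, 149 and 159 with 22.8 and 26.6. MXD4, a MAX partner that opposes MYC, was at 310, 242 and 229 CPM with 99.8 and 118. PIK3R3, a regulatory subunit of PI3 kinase, OSBPL5, AMOTL2 and CD33 completed the 12. The level with both drugs was above both single agents in 11 of the 12.

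Among the shared lower genes, BRIX1, which assembles the large ribosomal subunit, was at 42.4 CPM in palbociclib, 38.1 in JQ1-B and 40.4 in JQ1-A, against 113 and 102 in drug-free cells. EXOSC8, an exosome subunit, was at 66.8, 62.6 and 58.6 CPM with 149 and 174, and the exosome genes EXOSC7 and EXOSC9 were in the set too. For BRIX1 and EXOSC8 the palbociclib and JQ1 libraries were close together. The distance of palbociclib and JQ1-B from the drug-free libraries was set by the choice of genes. SFN (14-3-3 sigma) was at 14.02, 20.05 and 11.6 CPM with 46.7 and 47.7, and APOBEC3B, a cytidine deaminase, at 13.3, 10.9 and 9.89 with 30.7 and 33.0. HSPA5, the chaperone of the endoplasmic reticulum, was at 63.0, 75.9 and 70.3 CPM with 203 and 163, and 8 of 18 unfolded protein response genes were shared lower. Cyclin A2 (CCNA2) was at 29.8, 31.5 and 31.4 CPM with 66.0 and 81.7, and the spindle checkpoint gene MAD2L1 at 42.8, 39.7 and 39.9 with 86.5 and 94.5. Of 33 DNA replication genes tested, 13 were shared lower, as were 9 of 36 mitosis genes, beside 7.14% of all genes tested.

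**Figure D4:**
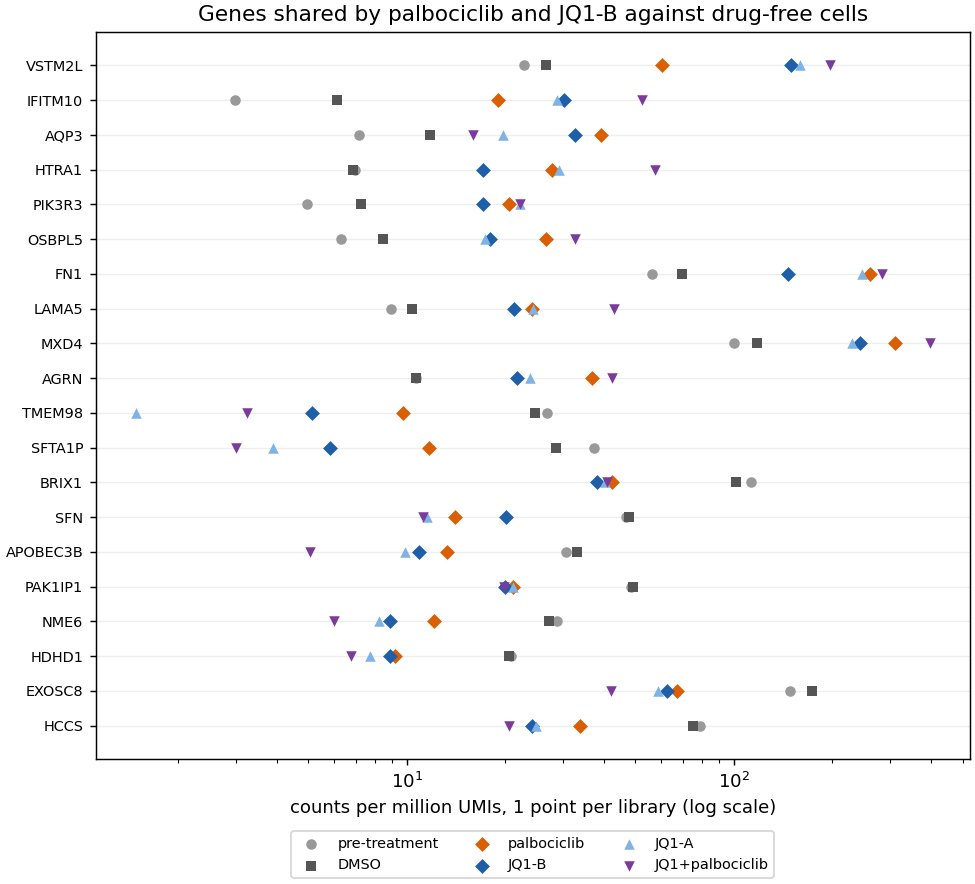
CPM (x axis, log scale) of 10 shared higher genes (top) and 10 shared lower genes (bottom), with 1 point per library. By the choice of genes, both drug-free libraries lie left of palbociclib and JQ1-B in the top rows and right of them in the bottom rows. Examples are FN1 at 56.1 and 69.6 against 260 and 146 CPM, and BRIX1 at 113 and 102 against 42.4 and 38.1.

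Fewer shared genes stayed past 2-fold once cells of other phases were left out. In cells called G1 alone, 8 of the 36 shared lower genes stayed past 2-fold and 24 past 1.5-fold, with 35 in the same direction. Of the 12 shared higher genes 3 stayed past 2-fold and 11 past 1.5-fold. G1 left 102 pre-treatment and 80 DMSO cells, with 1975823 and 1422933 UMIs, against 14101630 and 10621159 UMIs in all cells. How far this loss of depth lowered the counts was not tested. A fit of G1 cells called 21 genes shared higher and 3 shared lower. Scaling mattered too, as TMM factors of 1.001 for palbociclib, 0.946 for JQ1-B and 1.093 and 1.103 for drug-free libraries left 10 of the 36 past 2-fold and all 12 of the higher. Without them, the median log2 ratio of the 5080 genes to the mean of the drug-free libraries was -0.24 in palbociclib and -0.30 in JQ1-B. Of the genes that set the drugs apart, 108 of the 117 and 12 of the 14 stayed past 2-fold against JQ1-B in G1 cells. They began further from that line, at median log2 changes of 1.71 and 1.46 in all cells. The shared higher and lower sets began at 1.08 and 1.09, by the smaller change of palbociclib and JQ1-B. The counts therefore cannot show which kind of gene moved less.

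In 41 genes both drugs were called against drug-free cells in opposite directions, 36 of them higher under palbociclib. They held SAA1, SAA2, ICAM1, SOD2, TNFAIP3, IL1B, IFITM2 and IFITM3 on one side and PEG10, CLU, H1F0, H2AFX and HMGN2 on the other, chosen for mention after their values were seen. IL13RA2, a decoy receptor for interleukin 13, was at 62.6 CPM in palbociclib and 9.85 in JQ1-B against 13.7 and 23.3 in drug-free cells.

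Within libraries, the difference in the summed NF-kB list was spread over most cells. After each cell was thinned to 10000 UMIs, which left out 28 palbociclib and 22 JQ1-B cells, the 30 NF-kB genes summed to a median of 30 UMIs in palbociclib cells (10th to 90th percentile 14 to 52) and 5 in JQ1-B cells (2 to 15). The median was 7 in JQ1-A, 6 with both drugs, 23 before treatment and 26 in DMSO. In palbociclib, 71.3% of cells exceeded the 95th percentile of JQ1-B cells, which was 22, as did 52.5% of pre-treatment and 60.1% of DMSO cells. The sum leans on abundant members and does not speak for each gene. CXCL2 alone gave a mean of 5.96 of 32.3 UMIs per palbociclib cell. The 40 interferon-stimulated genes summed to a median of 13 and 6 UMIs. These libraries hold 1 cell line, so no cell type gives a level of free RNA, and shares of cells count cells with a UMI, not cells expressing a gene.

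Single genes differed in how they were spread. IL32 was found in 68.1% of thinned palbociclib cells (64.4 to 71.7, a Clopper-Pearson interval over the cells of 1 library) and 2.72% of JQ1-B cells (1.73 to 4.05), or 85.4% and 5.76% before thinning. CXCL2 was found in 91.4% and 26.5%, TNFAIP3 in 51.0% and 7.92% and ICAM1 in 22.9% and 0.709%. SAA1 was found in 47.8% of palbociclib cells, although its mean level would place a UMI in 93.3% if spread evenly, and SAA2 in 15.8% against 41.5%. The tenth of palbociclib cells with most SAA2 held 87.3% of its UMIs, so that these acute phase genes came from fewer cells than IL32 did. PEG10 was found in 19.5% of palbociclib and 76.0% of JQ1-B cells.

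**Figure D5:**
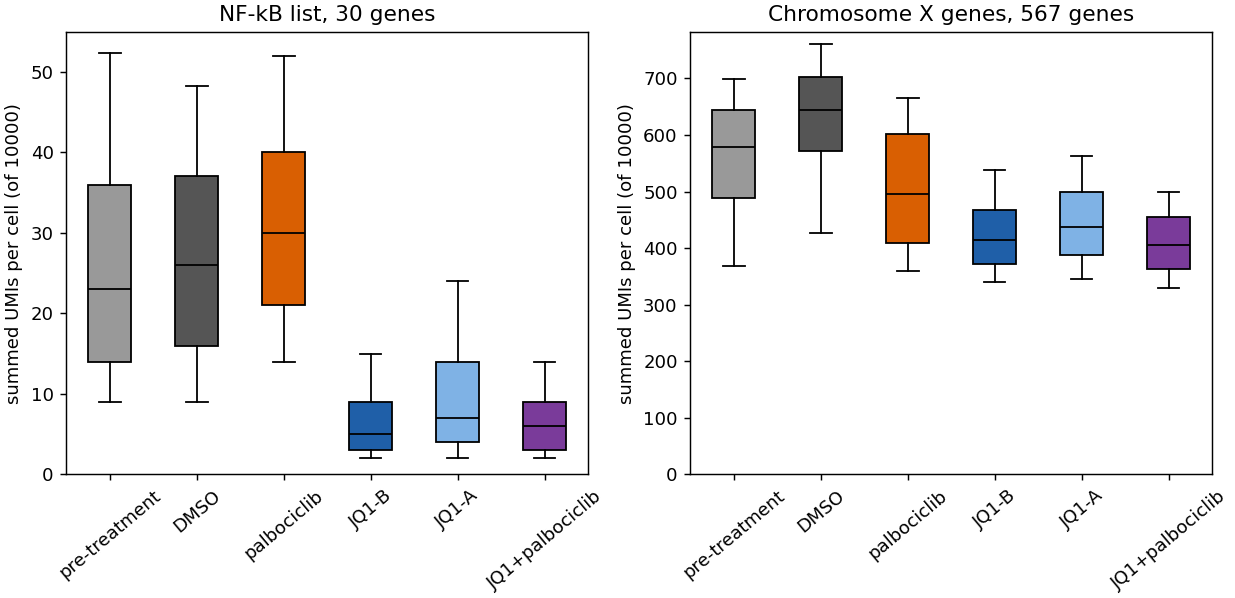
Summed UMIs per cell, of 10000, for the 30 NF-kB genes (left) and 567 chromosome X genes (right), by library. Boxes span the quartiles with a line at the median, and whiskers reach the 10th and 90th percentiles. NF-kB medians are 30 in palbociclib against 5 to 7 in the libraries with JQ1 that are shown, and chromosome X medians run from 406 with both drugs to 644 in DMSO. The paclitaxel library is not shown.

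Genes of chromosome X were higher in palbociclib as a group. Of 169 chromosome X genes counted, 26.6% were at least 1.5-fold higher in palbociclib than in JQ1-B, beside 9.24% of all 4590 genes. Their median log2 ratio, relative to that of all genes, was 0.31, or 0.23 against JQ1-A. The next chromosomes were 5 at 0.14 and 16 at -0.14. Against drug-free cells the chromosome X median was -0.12 in palbociclib, -0.45 in JQ1-B and -0.42 in JQ1-A. By windows of 40 Mb from the short arm's end, it was -0.46, -0.05, -0.26 and -0.04 in palbociclib and -0.76, -0.37, -0.63 and -0.27 in JQ1-B. Per thinned cell, 567 chromosome X genes summed to a median of 496 UMIs in palbociclib (10th to 90th percentile 360 to 665) and 415 in JQ1-B (340 to 539), with 579 and 644 in drug-free cells. Of the 36 shared lower genes, 9 were on chromosome X, among them HDHD1, HCCS and SMS, beside 3.84% of the 5080 genes counted there. Of the 117 higher genes 8 were, beside 3.68% of the 4590.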

How the data were processed

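Barcoded SUM159 cells were captured on the 10x Chromium platform. The authors aligned reads to hg19 and counted UMIs per gene and cell with Cell Ranger, and deposited the counts of 18955 genes in 5738 cells with the library of each cell. Cells were used as deposited, of which 5575 pass the study's filter of mitochondrial share (1 to 15%) and detected genes (at least 2000). Doublets were not called. Members and gene lists were chosen with earlier results of these data known.

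UMI counts were summed per library, so depth ran from 10621159 to 24240835 UMIs. CPM ratios took genes at 20 CPM or more in the higher library, so genes high in only 1 library could enter through it. Intervals at the 95% level are exact conditional binomial ones. Genes were named as the 12 with the largest ratio each way among those past 2-fold against both JQ1 libraries, the 10 with the largest smaller change shared each way, 3 each way past 2-fold against JQ1-B only, and genes of the lists. The fit used edgeR 4.0.16 (R 4.3.3) with TMM factors, genes at 5 CPM in at least 2 libraries, 2 residual degrees of freedom and Benjamini-Hochberg adjustment. Tested on simulated data for palbociclib minus JQ1 over 9288 genes, it recovered 100% of 200 genes changed by 2 on the log2 scale and called 7 unchanged genes. The simulated libraries held no effect of the experiment and no smaller changes. The simulation therefore cannot show how the fit handles either. Phases came from Seurat's gene lists with scanpy 1.11.5. Gene positions come from GENCODE on GRCh37, where 14276 symbols matched directly and 1102 by an older symbol. Alternatives were DESeq2 1.42.0, other scalings and filters, additive models, G1 cells and each library left out. The G1 fit, the sets followed in G1 cells and under TMM, and the chromosome X windows and sums per cell were chosen after seeing the data. Some genes are not reported here.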

Additional observations from a re-analysis of the deposited data

How the results depend on the processing

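No paired analysis was possible because palbociclib has 1 library and the groups compared share fewer than 2 replicate numbers. By size, the counts of genes 2-fold higher and lower in palbociclib than JQ1-B were 64 and 17 at 50 CPM and 3054 and 1106 with no filter. Shared genes were then 3 higher and 21 lower, and 182 and 429. TMM scaling gave 44 lower, with 21 shared higher and 10 shared lower. G1 cells gave 11 shared lower, and JQ1-A in place of JQ1-B gave 17 lower and a chromosome X median of 0.23. In the fit, DESeq2 called 285 shared higher. Additive drug terms over 8 libraries gave 92 higher and 35 lower, with 14 shared higher and 6 shared lower. With a term for the experiment they gave 3 and 1, with 0 and 0 shared in edgeR (226 and 224 at an unadjusted p under 0.05). The fit in G1 cells, an alternative chosen after seeing the data, gave 21 shared higher and 3 shared lower. Without a filter on low counts the fit called 1167 higher and 618 lower, with 1107 shared lower. Leaving out 1 library gave 98 to 1013 higher, 13 to 673 lower, 117 to 1046 shared higher and 110 to 1011 shared lower. The cause of these changes was not tested. MMP1 reversed, from -1.38 to 0.60 with additive terms, 0.48 with the experiment term and 0.18 in G1 cells. Over 30 named genes and these fits, genes with a call kept it in 220 of 275 cases and lost it in 55, and genes without one gained it in 17 and stayed without it in 35. Depth limits the genes scarce in JQ1-B most, as the ratios of SAA2 and ICAM1 rest on 6 and 7 UMIs there.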

Other observations

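High mobility group, hypoxia and cancer-testis genes showed smaller differences between palbociclib and JQ1-B. HMGN2, a nucleosome-binding protein, was at 363 CPM in palbociclib, 771 in JQ1-B and 610 in JQ1-A, with 566 and 611 in drug-free cells, and of 8 high mobility group genes counted 2 were at least 1.5-fold lower in palbociclib and 1 higher. Of 17 hypoxia and glycolysis genes, 3 were at least 1.5-fold higher, among them VEGFA, the angiogenic growth factor, at 45.6 CPM in palbociclib, 2.28-fold above JQ1-B. Over all 4590 genes 9.24% were at least 1.5-fold higher and 3.68% lower, so 1 of 8 and 3 of 17 higher lie not far above that share. Of 8 cancer-testis antigens, 4 were at least 1.5-fold higher, led by SPANXC and CTAG2 at 2.13-fold each, but against JQ1-A 1 was higher and 1 lower, and the fit called 1 higher and 1 lower of 9. Near-identical copies in these families may trade reads.

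ID2, an inhibitor of helix-loop-helix factors, was at 26.5 CPM in palbociclib and 55.4 in JQ1-B, and TGFB1, the growth factor, at 50.4 and 82.1. Both were called lower in palbociclib by edgeR (adjusted p = 0.0147 and 0.0199). AXL, a receptor tyrosine kinase of mesenchymal cells, was at 89.9, 156 and 143 CPM in palbociclib, JQ1-B and JQ1-A with 105 and 115 in drug-free cells. MMP1, the interstitial collagenase, was at 9.06, 31.0 and 13.04 CPM in palbociclib, JQ1-B and JQ1-A with 27.2 and 10.4 in drug-free cells, so that the JQ1 and drug-free libraries overlapped.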
